A study of Mus musculus with 378 samples.

Results

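Fatty acid oxidation and its control by the PPAR receptors were followed through 30 genes in RNA of mouse pancreatic islets. The 30 genes were chosen by symbol, as named enzymes, carriers, regulators and lipid-responsive genes of this pathway, and all 30 were found among the 22180 genes of the deposited count table. A filter on low counts kept 29 of them, among 16927 genes in all. Ppara did not pass. The RNA came from mice of the Diversity Outbred stock, in which each animal carries its own mosaic of several founder genomes. Nearly equal numbers were female and male (190 males), with sex read from the titles, and every mouse was fed a diet high in fat and sugar (45% fat). No untreated or chow-fed group was analysed here, age was not given in the labels used here, and each library was labelled as a separate mouse. Sex was the single contrast.

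Fatty acids enter mitochondria as carnitine esters. CPT1 at the outer membrane attaches carnitine, the carrier SLC25A20 exchanges the ester across the inner membrane, and CPT2 releases the acyl-CoA again. Acyl-CoA dehydrogenases, hydratases, 3-hydroxyacyl-CoA dehydrogenases and thiolases then shorten the chain in repeated cycles, and the electron transfer flavoprotein passes the electrons on to the respiratory chain. PPAR-alpha and PPAR-delta are nuclear receptors activated by fatty acids, and Cpt1a, Pdk4, Angptl4 and Plin2 are well-known targets of such receptors. In beta cells this pathway competes with the use of glucose carbon, and loss of HADH is a known cause of excess insulin secretion.

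The libraries held 15.1 to 68.8 M counts, with a median of 34.8 M. The titles number the mice, and 4 bands of 100 numbers, starting at 21, held 46, 46, 49 and 47 females and 45, 48, 50 and 47 males. The labels do not say what these bands represent. Band 4 was shallower, with a median of 23.99 M counts against 36.4 to 37.2 M in the others. Apart from 1 female numbered among the males of band 2, females were numbered before males in every band, so sex and that order cannot be told apart. The islet label was checked by marker sums in CPM (counts scaled to the library total): the median sum of beta-cell markers was 136840 CPM for females and 164420 for males, and that of alpha-cell markers 23064 and 11620 CPM. Other cells were present too, acinar markers ranging from 126.5 to 84770 CPM. In bulk RNA, fewer cells of a type and less RNA per cell cannot be told apart.

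12 male libraries at the high end of Cpt1a and Slc25a20 were taken as a set, called here the libraries that stand apart. With the mean of each sex and band removed, they were picked by lying over 0.6 in Cpt1a and over 0.4 in Slc25a20. They ran from 0.65 to 1.02 in Cpt1a on the log2 scale, where the next male was at 0.60. In Slc25a20 they ran from 0.47 to 0.98 and overlapped the other males, which reached 0.58. Bands 1 to 4 held 3, 2, 3 and 4 of them, and no female (0) passed both limits of 0.6 and 0.4, although the highest female reached 0.64 in Cpt1a and 0.58 in Slc25a20. The 12 also lay at 0.35 to 1.12 in Etfb, at 0.75 to 1.58 in Plin2 and at 1.07 to 3.42 in Angptl4. In Hadhb they ran from -0.32 to 0.14, within the range of the other males, and in Acadm from -0.60 to 0.75, slightly past both ends of it (-0.53 to 0.68). The set was noticed after the values had been seen, and no clear gap parts it from the highest female in Cpt1a. Its values in other genes are given without a test against the other mice. Because the set was defined by high Cpt1a and Slc25a20 in males alone, leaving it out lowers the male level, spread and correlations of these genes by construction. Results that rest on the 12 libraries are given with all libraries and with these 12 left out.

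The 4 sequences shown are the promoter between the divergent genes Hadha and Hadhb, with 85 bases between them, and those of Cpt1a, Slc25a20 and Plin2, which varied together between mice. Sequences are from RefSeq on GRCm38, read on the gene's strand and stopped before the first exon. Capitals mark GGGCGG, the GC box, and AGGTCA, the building block of the repeat AGGTCANAGGTCA to which a PPAR binds with RXR, each on either strand. The Hadhb sequence, chr5:30155163-30155247 on the plus strand, fills the whole gap to Hadha (chr5:30118304-30155162, minus strand). Cpt1a is chr19:3323051-3323284 (plus strand), Slc25a20 chr9:108661886-108662087 (plus strand) and Plin2 chr4:86670061-86670309 (minus strand).
Hadhb: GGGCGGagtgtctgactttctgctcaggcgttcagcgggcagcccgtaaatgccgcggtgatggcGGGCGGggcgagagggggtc
Cpt1a: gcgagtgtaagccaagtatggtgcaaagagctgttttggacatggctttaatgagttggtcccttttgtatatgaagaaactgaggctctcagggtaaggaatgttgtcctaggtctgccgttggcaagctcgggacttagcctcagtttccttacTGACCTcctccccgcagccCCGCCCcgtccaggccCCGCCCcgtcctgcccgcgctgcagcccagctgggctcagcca
Slc25a20: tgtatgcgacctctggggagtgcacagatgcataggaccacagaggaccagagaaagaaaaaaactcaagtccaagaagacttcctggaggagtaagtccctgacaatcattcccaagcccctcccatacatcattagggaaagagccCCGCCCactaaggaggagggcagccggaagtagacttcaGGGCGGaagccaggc
Plin2: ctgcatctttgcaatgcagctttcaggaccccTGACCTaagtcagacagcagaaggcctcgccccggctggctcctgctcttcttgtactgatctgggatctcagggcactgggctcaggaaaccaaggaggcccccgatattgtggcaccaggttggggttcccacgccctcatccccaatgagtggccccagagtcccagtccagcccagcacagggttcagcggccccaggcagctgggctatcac
The 85 bases between Hadha and Hadhb held 2 GC boxes, those of Cpt1a held 2 GC boxes and 1 AGGTCA, those of Slc25a20 held 2 GC boxes and those of Plin2 held 1 AGGTCA. Over windows of 300 bases (250 before the start and 50 after), which existed for 26 of the 30 genes, GGGCGG occurred in 20 and in 38.2% of the windows of all 27025 genes. AGGTCA occurred in 5 (Cpt1a, Cpt1c, Acadm, Acadvl and Plin2) and in 18.1% of all genes. CACGTG, the E-box, occurred in Plin2 and in 8.09% of all genes. The full repeat was found in 0 of the 26 windows and in 0.0481% of all windows, and both searches include matches that overlap another motif. A match is a description of the letters and not of a bound site. Crat, Acaa2, Decr1 and Angptl4 were not matched.

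Per length, the highest of the 30 genes was Hadh, the short-chain 3-hydroxyacyl-CoA dehydrogenase. Its level was 84.9 ± 19.1 CPM per kb of the longest transcript (SD over all libraries, as for each level below). Ucp2, which encodes an uncoupling protein of the inner membrane, followed at 42.01 ± 14.1 CPM per kb. Next came Hadhb and Hadha, the subunits of the trifunctional protein for long chains, at 31.01 ± 6.002 and 25.1 ± 2.81, and the genes of the electron transfer flavoprotein, Etfb at 29.7 ± 6.33 and Etfa at 28.6 ± 4.10. The very-long-chain dehydrogenase Acadvl stood at 27.8 ± 2.92 CPM per kb, so the levels from Hadhb to Hadha overlapped within their SDs.

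The middle of the order, between 4.31 and 16.3 CPM per kb, held most of the other enzymes. Eci2 and Eci1, the isomerases for unsaturated chains, were at 16.3 ± 3.67 and 6.92 ± 1.31 CPM per kb, and Decr1, the dienoyl-CoA reductase, at 4.31 ± 1.00. Cpt2 was at 12.3 ± 2.37, Cpt1a, the regulated entry step, at 11.6 ± 2.65, and Slc25a20 at 6.78 ± 1.39 CPM per kb. Cpt1a and Cpt2 therefore did not differ beyond their spread. Cpt1c, a CPT1 relative best known from brain, was at 1.70 ± 0.808 CPM per kb.

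Among the dehydrogenases, Acadsb for branched chains stood at 15.8 ± 3.51 CPM per kb, Acadm for medium chains at 9.79 ± 1.79, Acadl for long chains at 9.64 ± 2.68 and Acads for short chains at 5.71 ± 1.37. Acadm and Acadl were not apart by more than their SDs. The thiolases Acaa2 of mitochondria and Acaa1a of peroxisomes were at 12.2 ± 5.30 and 10.8 ± 2.94 CPM per kb.

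Of the receptors, Ppard was the abundant one, at 10.9 ± 4.70 CPM per kb, and Ppara the lowest of all 30 genes, at 0.0328 ± 0.0291. Ppara had a median of 3 counts per library, at most 17, and 0 counts in 34 libraries. The coactivator Ppargc1a was at 0.906 ± 0.612 CPM per kb. Of the lipid-induced genes, Plin2, the coat protein of lipid droplets, was at 12.1 ± 5.89 and Pdk4, the kinase that switches off pyruvate dehydrogenase, at 5.53 ± 3.53 CPM per kb. Angptl4, a secreted inhibitor of lipoprotein lipase, was at 0.334 ± 0.402, and the acyl-CoA thioesterases Acot2 (mitochondrial) and Acot1 (cytosolic) were at 1.64 ± 0.698 and 0.174 ± 0.0946 CPM per kb. Without division by length, the order of CPM was the same in the deposited variance-stabilised values (rho = 1 across the 29 tested genes, which are not independent). Both come from the same counts, and that order differs from the order per length given above.

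**Figure D1:**
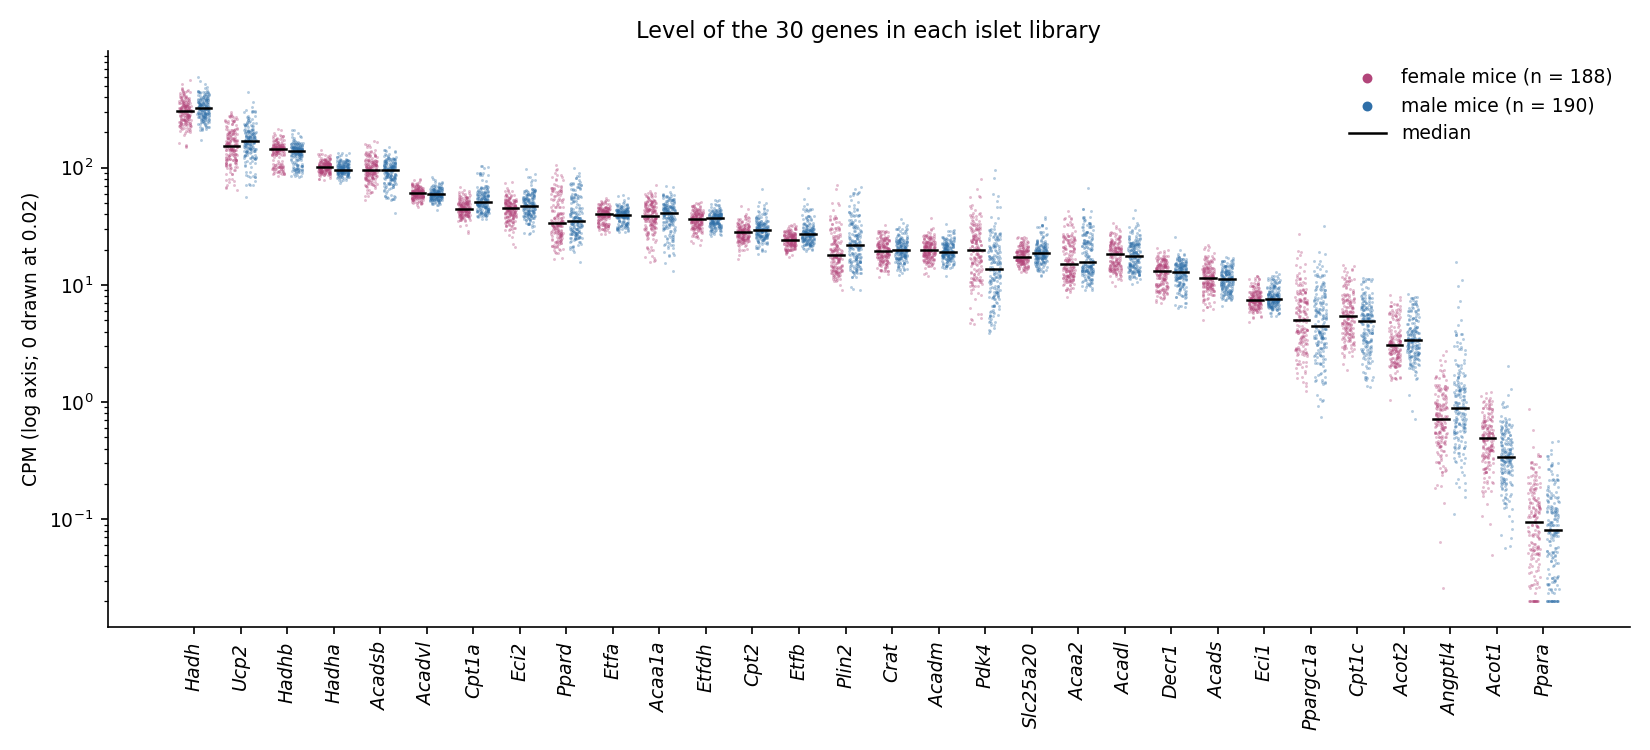
Level of each of the 30 genes in every islet library on a log axis, in CPM not divided by transcript length, by sex. Hadh has the highest mean, 318.5 CPM, and Ppara the lowest, 0.112 CPM. Among the genes that passed the count filter, the widest distributions are those of Angptl4, Ppargc1a and Pdk4.

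The spread between mice differed widely among the 29 genes. With sex and band means removed, the SD of log2 CPM was 0.13 in Hadha and Etfa, 0.14 in Acadvl and 0.16 in Hadhb, but 0.90 in Angptl4, 0.89 in Ppargc1a and 0.78 in Pdk4. Acot1 had 0.64, Cpt1c 0.63, Plin2 0.57 and Acaa2 0.56. The median over the 29 genes was 0.29, against 0.33 over all genes tested. Counting noise alone would give 0.44 in Acot1 and 0.33 in Angptl4, but 0.07 in Pdk4 and 0.13 in Ppargc1a.

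Ppargc1a was more than 2-fold above its sex and band mean in 46 mice and more than 2-fold below it in 45. For Angptl4 these numbers were 43 and 41, and for Pdk4 31 and 33. Plin2 and Acaa2 were lopsided, with 21 mice above against 3 below and 18 above against 1 below. Set against genes of the same abundance by edgeR's dispersion, Pdk4 was at percentile 94.8, Plin2 at 90.8 and Ppargc1a at 90.5.

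Between the sexes, edgeR's quasi-likelihood test with the band as a term called 18 of the 29 genes (62.1%) at an adjusted p under 0.05, where 50.6% of all 16927 genes were called. 6 were higher in females (21.7% of all genes were) and 12 lower (28.8% of all genes). Sizes were small: the median absolute log2 difference was 0.077 in the 29 genes and 0.078 over all genes. With the 12 male libraries left out, 16 were called (44.9% of all genes), and with 6 cell type marker scores as covariates 9 (33.5% of all genes). The scores were those of acinar, duct, endothelial, stellate, macrophage and lymphocyte markers, with none for alpha, beta, delta or PP cells. Of the 18 called genes, 15 had the same sign in all 4 bands, the exceptions being Slc25a20, Acadsb and Hadhb. Log2 differences below are female minus male, with the standard error.

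With the scores, 10 of the 18 were no longer called: Cpt2 (edgeR adjusted p = 0.0824), Cpt1c (0.0654), Slc25a20 (0.190), Hadh (0.0862), Hadhb (0.0850), Acadsb (0.0719), Acaa2 (0.231), Eci1 (0.309), Ucp2 (0.234) and Plin2 (0.101). Cpt1a was then at -0.15 and still called, and Acadvl was called, at 0.07 (edgeR adjusted p = 1.02e-04). Single-band estimates of some genes differed in size. The test for a sex difference that varied with the band called neither Angptl4 (edgeR adjusted p = 0.155) nor Plin2 (0.2385). Angptl4 ran from -0.47 in band 3, where it was not called (edgeR adjusted p = 0.0913), to -1.32 in band 4, and was at -0.50 in bands 1 to 3. Plin2 ran from -0.11 in band 3 to -0.60 in band 4.

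Of the 5 carnitine shuttle genes, 3 were called lower in females (28.8% of all genes were) and 1 higher (21.7% of all genes). With the cell type scores as covariates, Cpt1a was the only 1 of the 5 still called. Cpt1a ran from 28.0 to 68.8 CPM in females, with a median of 44.8, and from 36.5 to 104.1 in males, with a median of 50.99. The difference was -0.24 ± 0.029 (edgeR adjusted p = 1.45e-14) and -0.17 without the 12 libraries. The sexes overlapped over most of their range.

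Slc25a20 ran from 12.9 to 25.9 CPM in females (median 17.3) and from 12.0 to 37.8 in males (median 18.7), a difference of -0.11 ± 0.028 (edgeR adjusted p = 4.14e-04). Without the 12 libraries it was -0.04 and no longer called (edgeR adjusted p = 0.143). Cpt2 ran from 16.5 to 46.7 CPM in females (median 28.0) and from 18.5 to 65.3 in males (median 29.5), a difference of -0.10 ± 0.025 (edgeR adjusted p = 5.07e-04). Cpt1c went the other way, with medians of 5.38 CPM in females (1.88 to 14.8) and 4.96 in males (1.33 to 11.5), a difference of 0.26 ± 0.066 (edgeR adjusted p = 2.92e-04). Crat, the carnitine acetyltransferase, had medians of 19.6 and 19.8 CPM and was not called (edgeR adjusted p = 0.161).

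Among the enzymes of the cycle the differences were slight, and in both directions. Hadha ran from 79.1 to 141.2 CPM in females (median 102.3) and from 74.3 to 135 in males (median 96.5), a difference of 0.05 ± 0.014 (edgeR adjusted p = 5.50e-04). Its partner Hadhb, at 0.04 ± 0.017, was just under the threshold (edgeR adjusted p = 0.04997) and above it without the 12 libraries (0.0766). Hadh was lower in females by a similar margin, at -0.09 ± 0.032 (148.9 to 555 CPM, median 305.9, against 173.9 to 595, median 320, in males).

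Acadsb was higher in females, at 0.08 ± 0.025 (edgeR adjusted p = 0.00658). Acaa2, at -0.14 ± 0.059, was called with all libraries (edgeR adjusted p = 0.0370) and not without the 12 (0.0594). Eci2 and Eci1 were lower in females, at -0.14 ± 0.031 and -0.06 ± 0.019. Acads, Acadm, Acadl, Acadvl, Acaa1a and Decr1 did not pass the test. Acadvl passed it without the 12 libraries, at 0.05 (edgeR adjusted p = 9.62e-04).

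The flavoprotein subunits parted. Etfb ran from 17.2 to 33.2 CPM in females (median 24.4) and from 19.5 to 67.4 in males (median 27.3), a difference of -0.22 ± 0.025 (edgeR adjusted p = 2.17e-15) that was -0.16 without the 12 libraries. Etfa had medians of 40.3 and 39.6 CPM and a difference of 0.01 ± 0.014 (edgeR adjusted p = 0.467), and Etfdh, the dehydrogenase that takes over the electrons, was at -0.02 ± 0.020 (0.313). The highest male values of Etfb were above every female.

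The lipid-induced genes moved in opposite directions. Pdk4 ran from 4.66 to 79.5 CPM in females (median 20.0) and from 3.87 to 96.2 in males (median 13.6), and was higher in females by 0.40 ± 0.083 (edgeR adjusted p = 1.14e-05). It was 0.46 without the 12 libraries and between 0.15 and 0.64 in single bands. The ranges of the sexes overlapped almost wholly.

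Angptl4 ran from 0.0257 to 2.75 CPM in females (median 0.717) and from 0.111 to 15.8 in males (median 0.898), and Plin2 from 8.997 to 70.9 CPM (median 17.9) and from 9.13 to 68.2 (median 21.98). Angptl4 was lower in females by -0.70 ± 0.106 (edgeR adjusted p = 1.41e-09), which came down to -0.35 without the 12 libraries (5.26e-04) and to -0.33 with the cell type scores. Plin2 was at -0.30 ± 0.062 (edgeR adjusted p = 1.34e-05), at -0.17 without the 12 and at -0.12 with the scores, where it was not called (0.101). Stellate and endothelial marker sums were also higher in males, with medians of 142.11 CPM for females and 170.61 for males in the stellate list (12 of 12 markers measured) and 561 and 621 in the endothelial list (13 of 13), and the highest male sums, 1561 and 1434, were above the highest female sums, 429 and 835. Apart from the fit with scores, their part in these differences was not tested.

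Ucp2 had medians of 152.4 CPM in females (64.1 to 297.8) and 170 in males (55.8 to 447), a difference of -0.14 ± 0.040 (edgeR adjusted p = 0.00223). The thioesterase Acot1 was higher in females, with a median of 0.489 CPM (0.05 to 1.21) against 0.341 (0.0569 to 2.02), by 0.42 ± 0.074 (edgeR adjusted p = 2.39e-07), while Acot2 was lower by -0.13 ± 0.038. Acot1 and Acot2 are closely similar neighbours and their counts were fractional in 99.7% of libraries, so reads may be divided between them and both values are uncertain. Of the regulators, Ppard (-0.05 ± 0.035) and Ppargc1a (0.05 ± 0.092) did not pass the test, and Ppara, tested without the filter, was at 0.18 (edgeR adjusted p = 0.243).

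**Figure D2:**
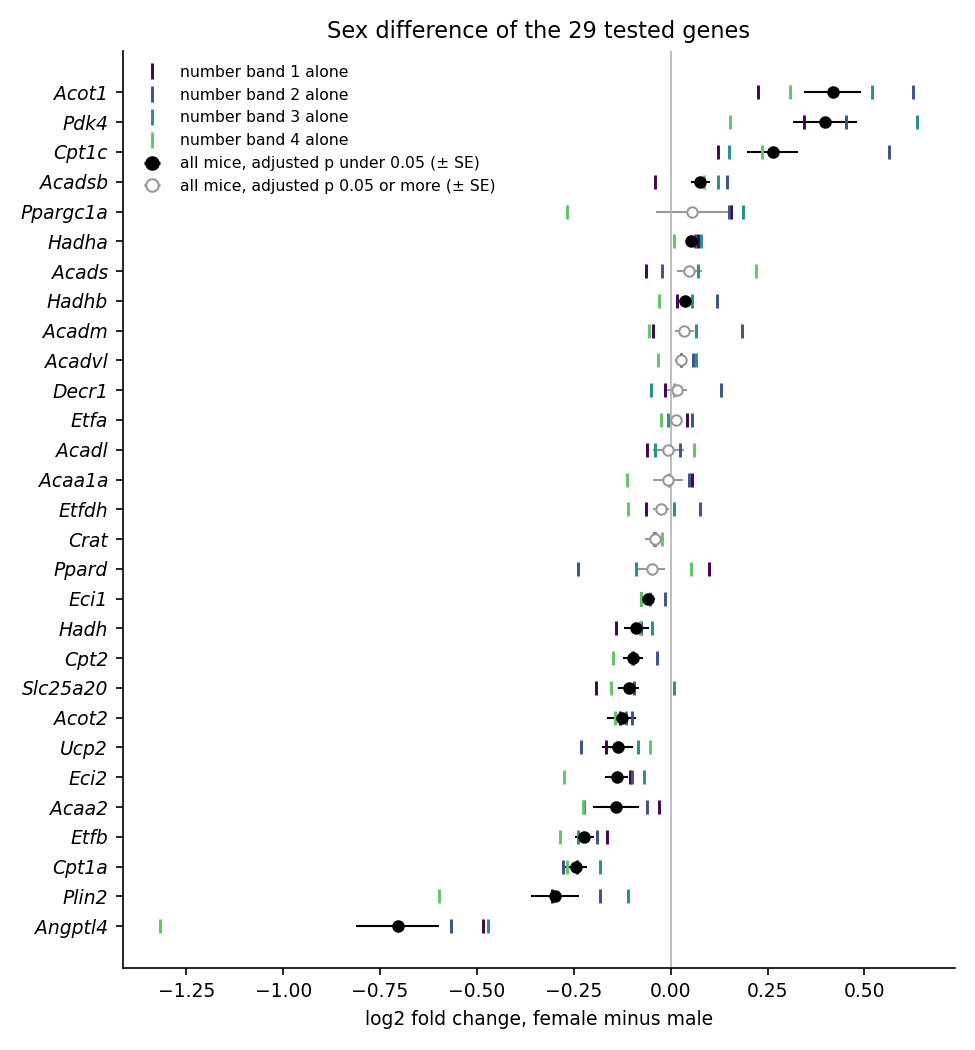
Log2 difference, female minus male, of the 29 tested genes with all libraries and in each number band, with standard errors. Pdk4 and Acot1 are highest at 0.40 and 0.42 and Angptl4 lowest at -0.70, and most genes lie within 0.25 of 0.

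Neighbouring parts of fatty acid metabolism mostly had more genes lower in females than higher, as did all genes (28.8% and 21.7%). Of 16 peroxisomal oxidation genes 8 were lower and 2 higher, among them the transporter Abcd2 (-0.48 ± 0.075) and the octanoyl transferase Crot (-0.21 ± 0.034). Of 12 tested genes of lipid droplets and lipolysis 6 were lower and 1 higher, led by the monoglyceride lipase Mgll at -0.48 ± 0.056, with Plin3 at 0.20 ± 0.054. Of 16 PPAR partners and cofactors 11 were lower and 2 higher, among them the corepressor Ncor1 (-0.12 ± 0.013), the coactivator Ncoa2 (-0.13 ± 0.018), the orphan receptor Esrrg (-0.31 ± 0.035) and the PPAR partner Rxra (-0.20 ± 0.030). Of 19 further matrix enzymes 11 were lower and 3 higher, including Acot7 at 0.69 ± 0.060, Ivd at 0.31 ± 0.056 and Echs1 at -0.10 ± 0.017.

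The kinases of pyruvate dehydrogenase other than Pdk4 were lower in females: Pdk2 at -0.50 ± 0.057, Pdk1 at -0.36 ± 0.045 and Pdk3 at -0.16 ± 0.018. In that list of 10 genes 4 were lower and 1 was higher, the phosphatase Pdp1 (0.11 ± 0.028). For uptake and activation 4 of 14 genes were higher, including the acyl-CoA synthetase Acsl1 (0.19 ± 0.024) and Fabp5 (0.29 ± 0.052), and 2 lower, including the fatty acid receptor Ffar1 at -0.28 ± 0.037. In malonyl-CoA and fatty acid synthesis 1 of 10 was higher (Elovl6, 0.12 ± 0.035) and 2 lower (Srebf1, -0.13 ± 0.030, and Mlycd, -0.07 ± 0.018). Of 5 ketone body genes 2 were higher, among them Bdh1 (0.07 ± 0.028). The list medians ran from -0.09 to 0.02, against -0.01 over all genes.

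The number band moved more genes than sex did. EdgeR called 26 of the 29 genes for band, and 87.9% of all genes. Cpt1a, Plin2 and Acaa2 were the exceptions. Most of the shift was in band 4: with bands 1 to 3 alone 9 of the 29 were called, and 35.2% of all genes. From band 1 to band 4 the median of Ppard went from 31.6 to 64.9 CPM (log2 shift 1.01), that of Acot2 from 2.73 to 5.80 (1.06) and that of Ucp2 from 141.2 to 227.3 (0.64). Decr1 fell from 14.2 to 9.41 CPM (-0.59) and Pdk4 from 19.6 to 11.2 (-0.59).

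The partners Hadha and Hadhb went in opposite directions, at 0.20 and -0.57. Their transcripts have a GC content of 51.3% and 39.1%. Across the 29 genes the shift of band 4 went with GC content (rho = 0.67, and 0.75 across 16867 genes, which are not independent), and the median absolute shift was 0.34 against 0.35 over all genes. Depth moved with band as well, and neither was tested as the source. By edgeR, 0 of the 29 genes were called for a sex difference that varied with the band (1.09% of all genes were called). At an unadjusted p under 0.05 there were 8 of the 29, and 16.8% of all genes. The lowest adjusted p was that of Acadm (0.0635).

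**Figure D3:**
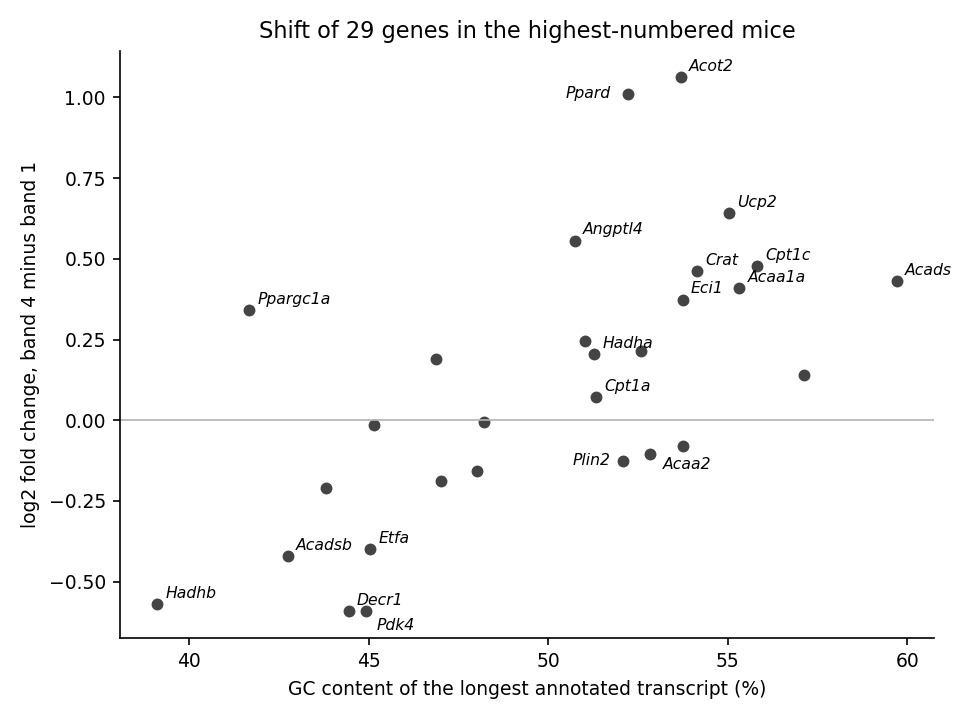
Log2 shift from band 1 to band 4 of each of the 29 genes against the GC content of its longest transcript in percent. Hadhb, at 39.1% GC, lies at -0.57 and Acot2, at 53.7%, at 1.06.

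Between-mouse spread was wider in males in 22 of the 28 genes with enough counts, and in 71.1% of all genes. By limma on absolute deviations it was called in 3, all wider in males (4.87% of all genes were wider in males and 0.0907% in females): Etfb, with an SD of 0.28 against 0.18 in females (limma adjusted p = 0.00511), Slc25a20 (0.30 against 0.21, 0.0225) and Cpt1a (0.31 against 0.22, 0.0332). Without the 12 male libraries their SDs in males were 0.22, 0.24 and 0.24, and none of the 3 was called (limma adjusted p = 0.360, 0.585 and 0.722). The calls for these 3 genes were thus lost with the 12 libraries.

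The genes did not vary together as a whole. Over all pairs of the 29 genes the median correlation between mice, with sex and band means removed, was 0.05, and 5 pairs (1.23%) reached r = 0.5, against 0.395% of all pairs of genes. At r = 0.3 there were 43 pairs (10.6%), against 3.39%. 1 pair was at or below -0.5 (0.114% of all pairs). Average linkage at a mean r of 0.3 gave 4 groups and left 15 genes in none.

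The largest group joined the entry step, electron transfer and lipid-induced genes: Cpt1a, Slc25a20, Acadvl, Etfb, Angptl4 and Plin2, with a median r of 0.45. Acadvl and Etfb had the highest r of all pairs, 0.63 (rho 0.54, limma adjusted p = 2.29e-38). Angptl4 and Plin2 had 0.53 (rho 0.49), and Cpt1a had 0.50 with each of them. For Cpt1a and Slc25a20, which act on the same substrate in turn, r was 0.49 (rho 0.35).

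The correlations of this group were lower without the 12 male libraries. These were picked by high Cpt1a and Slc25a20, both in this group, so leaving them out lowers r by construction. Its median r was 0.24 in females and 0.57 in males, and 0.28 over both sexes without the 12. Acadvl and Etfb stayed at 0.56 without them, and Angptl4 and Plin2 at 0.43, but Cpt1a and Slc25a20 came down from 0.49 to 0.28 and Slc25a20 and Etfb from 0.49 to 0.29. Pairs at r of 0.5 or more then numbered 2, against 0.366% of all pairs of genes.

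**Figure D4:**
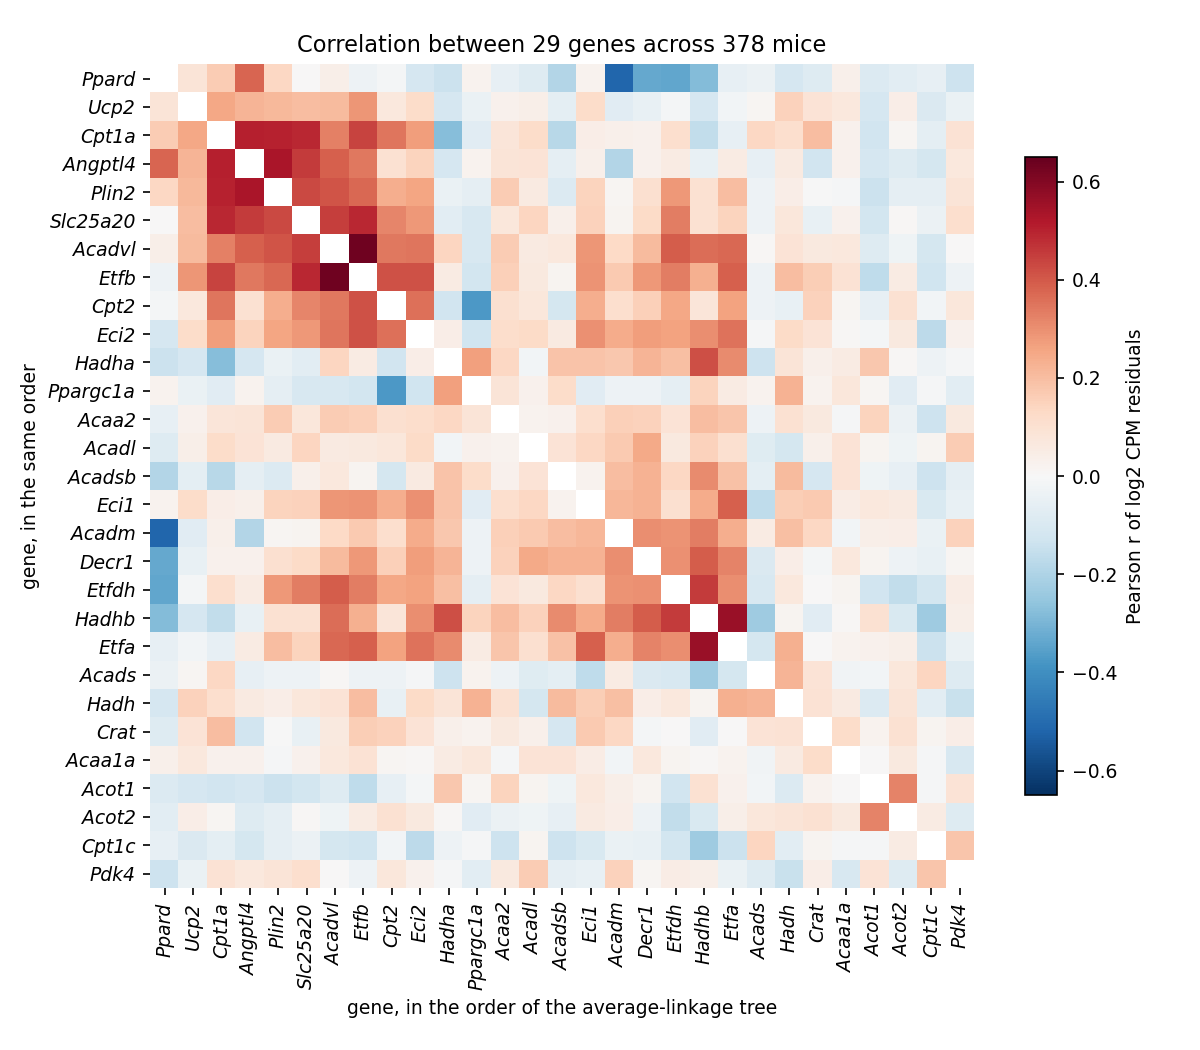
Correlation between mice of each pair of the 29 genes, with sex and band means removed, ordered by the linkage. The block from Cpt1a to Plin2 has a median r of 0.45 and that of Hadhb, Decr1, Etfa and Etfdh 0.36.

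The slope of one gene on another was tested for a difference between the sexes in both directions, and depended on which gene was taken as the predictor in 5 of the 10 named pairs within this group. The other 5 were called both ways with all libraries. For Slc25a20 and Angptl4, r was 0.14 in females and 0.61 in males (limma adjusted p of the difference in slope = 9.98e-05, where 24.9% of all genes differed in their slope on Slc25a20). For Cpt1a and Slc25a20 it was 0.22 and 0.62 (8.04e-04, where 22.2% of genes differed in their slope on Cpt1a). Without the 12 libraries the male r was 0.40 and 0.32, and the limma adjusted p of the difference was 0.228 and 0.675. The share of genes whose slope on Slc25a20 differed then was 0.236%, and that on Cpt1a 0.502%. For the slope on Acadvl the share went from 21.2% to 0.39%, for Cpt2 from 20.1% to 7.34% and for Eci2 from 4.83% to 0.0118%. For Etfb on Acadvl the call was lost in the other direction (limma adjusted p = 1.61e-04 and 0.954). The slopes of Plin2 on Angptl4, Cpt1a and Slc25a20 and of Acadvl on Slc25a20 were not called (limma adjusted p = 0.181, 0.367, 0.0694 and 0.0554), while those of Angptl4, Cpt1a and Slc25a20 on Plin2 and of Slc25a20 on Acadvl were (0.0125, 0.0193, 0.00429 and 3.62e-04). Of all genes 11.4% differed in their slope on Plin2, 10.3% on Angptl4 and 17.4% on Etfb, and without the 12 libraries 0%, 0% and 0.0354%. Without the 12 none of these pairs was called in either direction (limma adjusted p from 0.210 to 0.977 over the 10 pairs).

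**Figure D5:**
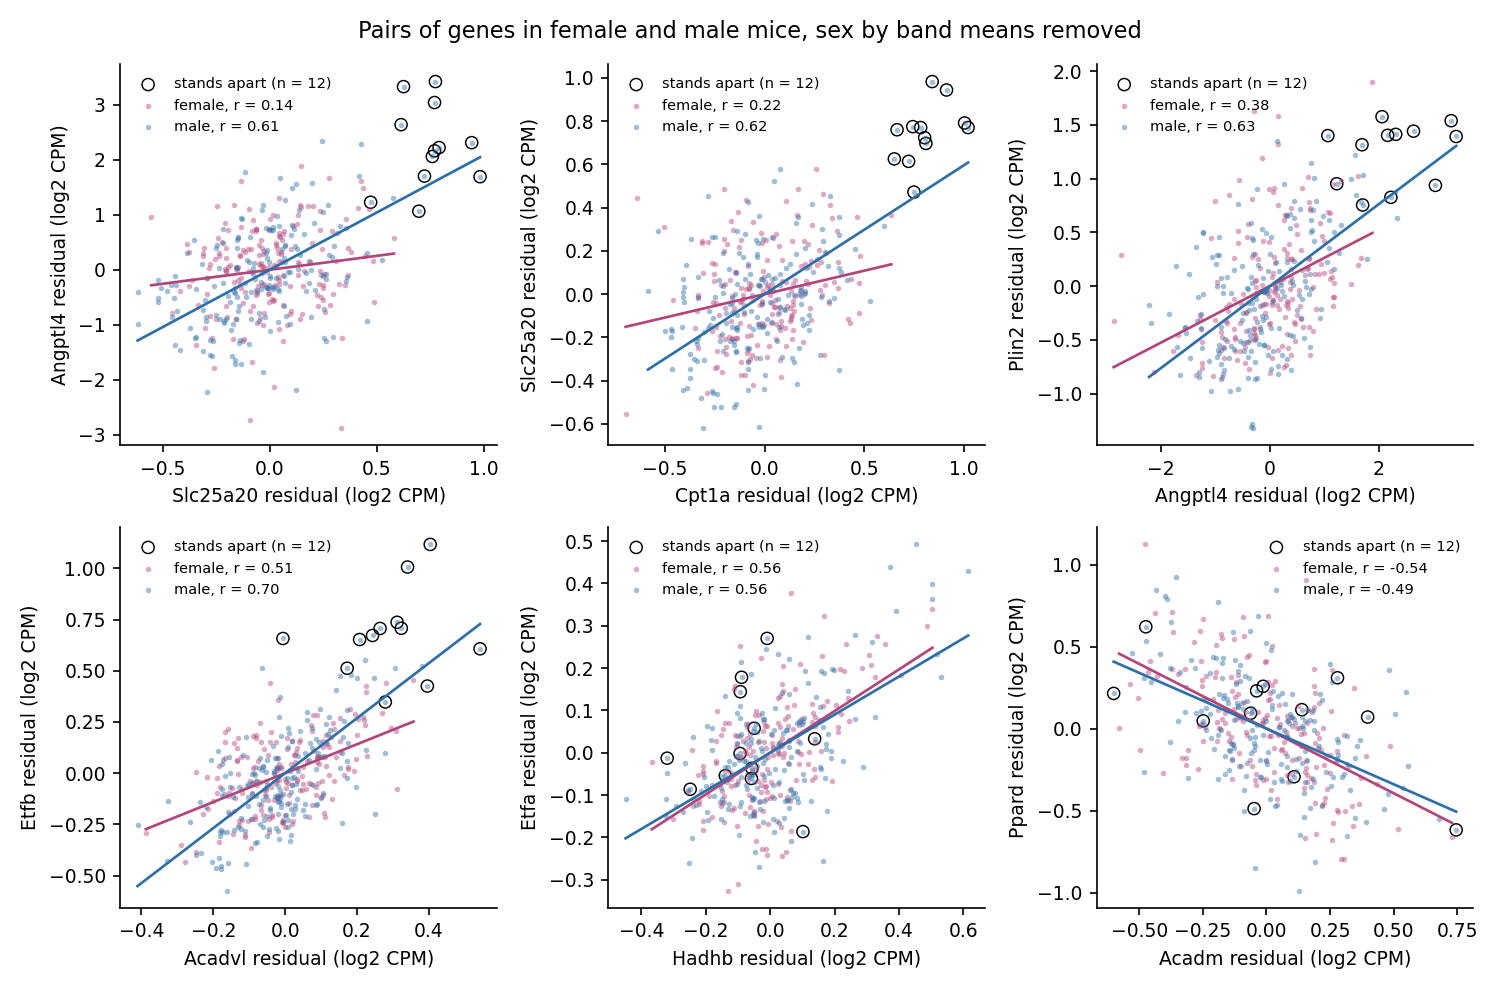
Log2 CPM residuals of 1 gene against another in females and males, each point a mouse, with the 12 male libraries that stand apart circled. The r of Cpt1a and Slc25a20 is 0.22 in females and 0.62 in males, and 0.32 in males without the circled points.

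A second group, with no gene used to pick those libraries, kept its correlations without them. Hadhb, Decr1, Etfa and Etfdh had a median r of 0.36, of 0.37 in females and 0.35 in males, and of 0.38 without the 12. Hadhb and Etfa, a trifunctional subunit and a flavoprotein subunit, had r = 0.56 (rho 0.45, 0.58 without the 12, between 0.29 and 0.71 in single cells of sex and band). Hadhb and Etfdh had r = 0.45 (rho 0.42). Hadhb, Etfdh and Decr1 of this group also went down in libraries of higher GC index, with r of -0.56, -0.43 and -0.37. With the index removed the group's median r was 0.27.

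The remaining groups were the pairs Cpt2 with Eci2 (r = 0.36) and Acot1 with Acot2 (r = 0.32, with shared reads possible). Etfb and Cpt2, from different groups, had r = 0.42. The divergent partners Hadha and Hadhb, whose 85-base gap is printed above, had r = 0.42 (rho 0.38), with 0.34 to 0.53 in the 8 cells of sex and band. With band differences left in, the same pair had r = -0.28. The other neighbours, Eci1 with Ppard on chromosome 17 and Cpt1c with Etfb on chromosome 7, had r = 0.02 and -0.13.

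Ppard stood against several enzymes. With Acadm r was -0.52 (rho -0.50, -0.65 to -0.36 in the 8 cells, -0.46 with the GC index removed). With Etfdh it was -0.34, with Decr1 -0.33 and with Hadhb -0.28. The last came down to -0.04 with the GC index removed, an index with which Ppard itself had r = 0.46. Ppargc1a, the coactivator, was at -0.37 with Cpt2.

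Each of these named pairs had a two-sided permutation p of 1e-05, the smallest that 100000 permutations within sex and band can give, other than Eci1 with Ppard (0.673) and Cpt1c with Etfb (0.0141, limma adjusted p 0.0693). Apart from the neighbours, the pairs were picked for a high or low r in the same data, so that p is no separate support. Without the 2 mice farthest in the first gene, r of the named pairs moved by little, for instance from 0.63 to 0.61 for Acadvl and Etfb and from 0.49 to 0.46 for Cpt1a and Slc25a20.

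Genes outside the pathway were ranked by their r with each of the 29. Highest with Angptl4 were Ldha, lactate dehydrogenase (r = 0.74), the transcription factor Ets1 (0.74), the lipid droplet protein Hilpda (0.71), the glycolytic regulator Pfkfb3 (0.71) and Rnd1 (0.71). At the other end were Dgcr8 (-0.63), Mphosph9 (-0.60), Pdp2 (-0.60), Vprbp (-0.57) and Atrn (-0.57). The first 5 kept r of 0.64 to 0.70 without the 12 libraries and were positive in all 8 cells.

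Plin2 shared part of that list, with Hilpda at 0.56, Klf11 at 0.55, P4ha1 at 0.55, Ldha at 0.54 and Inhbb at 0.52, against Pdp2 at -0.50, Dcp1a at -0.48, Usp11 at -0.45, Rbbp6 at -0.45 and Jmjd4 at -0.44. Cpt1a had Klf11, a Krüppel-like factor, at 0.65, then Prkcsh (0.61), Eef2 (0.58), Acer2 (0.57) and Ptprb (0.56). Lowest with Cpt1a were Cse1l (-0.65), Anp32e (-0.62), Prmt1 (-0.62), Rngtt (-0.60) and Mettl16 (-0.60). Klf11 was also the closest gene to Slc25a20 (0.58). Without the 12 libraries r with Klf11 was 0.50 for Cpt1a and 0.41 for Slc25a20.

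Pdk4 had no gene at r of 0.5 or more (0 of 14331 of mean CPM 1 or more, 0%, and 9 in females alone). Its closest were Ankrd6 (0.38), Srgap2 (0.35), the somatostatin receptor Sstr2 (0.34), Edn3 (0.32) and Wnk3 (0.32), and its lowest Ninj1 (-0.32), Slc39a1 (-0.31), Eif6 (-0.30), Btbd17 (-0.30) and Nfkbib (-0.30). Its r with the mean log2 level of the alpha-cell markers was 0.36 (rho 0.36, permutation p 1e-05), 0.56 in females and 0.19 in males. The summed CPM of alpha-cell markers was also higher in females, like Pdk4 itself. With the 6 cell type scores as covariates the sex difference of Pdk4 was 0.43. Those scores held none for alpha cells, so a part of alpha cells in this difference was not tested.

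Ppargc1a ran with Nt5dc3 (0.62), Srf (0.56), Vcl (0.56), Pi4k2a (0.56) and Nipa2 (0.55) and against Pdss2 (-0.49), Mrgpre (-0.43), Srbd1 (-0.41), Mbd5 (-0.40) and Wrap73 (-0.39). Acadm ran with Micu2 (0.49), Ormdl1 (0.46), Tubgcp5 (0.46), Mat2b (0.45) and Snx14 (0.45) and against Zhx2 (-0.55), B4galt5 (-0.54), Hivep2 (-0.53), Bag3 (-0.52) and Jak3 (-0.52). Ucp2 ran with Stim1 (0.48, 1.77 Mb away), Usf1 (0.42), Khnyn (0.40), Lpin1 (0.39) and Eif2b2 (0.39) and against Anp32e (-0.42), Cse1l (-0.41), Nup205 (-0.41), Polr2b (-0.41) and Dhx9 (-0.40). Cse1l and Anp32e were thus at the low end for both Ucp2 and Cpt1a.

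For Acot1 the highest were Acot6 (0.36), Efnb3 (0.35), Rbp4 (0.32), Ghsr (0.32) and Arg1 (0.32), and the lowest Derl3 (-0.29), Pdzk1ip1 (-0.29), Dennd3 (-0.28), Tmed10 (-0.27) and Athl1 (-0.27). Among the other genes the single closest gene was Ptpn1 for Ppard (0.81), Snx2 for Hadhb (0.73), the creatine kinase Ckmt1 for Etfb (0.71), the ATP synthase gene Atp5f1 for Etfa (0.68) and Eif3i for Acadvl (0.66). It was Pde5a for Hadh (0.59), Ece1 for Acads (0.57), Slc50a1 for Cpt2 (0.55), Cog6 for Etfdh (0.55), Fbxl4 for both Decr1 (0.50) and Eci2 (0.47), Lrsam1 for Crat (0.47), Ccdc12 for Eci1 (0.45) and Bclaf1 for Acadsb (0.42). Permutation p was 1e-05 for each gene named here. These genes were picked as extremes of r in the same data, so that p is no separate support. By limma, correlates at an adjusted p under 0.05 ran from 0.242% of all genes for Acaa1a to 59.2% for Etfb. For Cpt1a they were 54.5%, for Angptl4 53.8% and for Ppard 55.2%.

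Hadha had 1 gene at r of 0.5 or more (0.00698% of genes). Despite its small spread it was closest to genes of its own stretch of chromosome 5: Atraid (r = 0.53, 0.93 Mb away), Mpv17 (0.50, 1.02 Mb), Dnajb6 (0.49, 0.383 Mb) and Ept1 (0.49, 0.114 Mb). Its lowest were Apba1 (-0.36), Sez6l2 (-0.36), Arid1b (-0.35), Fndc3b (-0.35) and Smarcc2 (-0.35). Of these genes, Apba1, Arid1b, Sez6l2, Smarcc2, Dnajb6 and Ept1 changed sign when band differences were left in.

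Other genes had neighbours among those of largest r as well. Of the 10 genes with the largest r in size, 8 lay within 10 Mb for Cpt1c, 7 each for Acadl, Acaa1a and Acaa2, 5 for Acot2 and 4 for Hadha, where such a stretch holds about 1% of genes. The highest r was with Dhdh for Cpt1c (r = 0.49, 0.514 Mb), Kansl1l for Acadl (0.40, 0.112 Mb), Mbd1 for Acaa2 (0.51, 0.511 Mb), Deb1 for Acaa1a (0.34, 2.37 Mb) and Acot6 for Acot2 (0.60, 0.113 Mb), a closely similar gene that may share reads. For Acaa1a the largest r in size within 10 Mb was -0.53 with Higd1a, named after its values were seen. None of the 10 was local for Cpt1a, Cpt2, Slc25a20, Acadm, Acadvl, Hadhb, Etfa, Etfb, Etfdh, Pdk4, Angptl4 and Ppargc1a (0 each). Mice of an outbred stock inherit neighbouring genes together, and genotypes were not analysed here.

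Cell type markers moved with some of the genes between mice of the same sex and band. All relations between the 29 genes and 13 measures were computed. A marker list entered as the mean log2 level of its markers, with sex and band means removed, and not as the CPM sum given above. Angptl4 had r = 0.48 with the stellate mean, 0.46 with the endothelial and 0.40 with the macrophage mean (0.35, 0.32 and 0.25 in females). Cpt1a had 0.41 with the endothelial mean (0.03 to 0.61 in the 8 cells of sex and band), at 0.18 in females and 0.53 in males. With the mean of delta and PP cells Cpt1a had -0.45 (-0.71 to 0.01 in the 8 cells), at -0.14 in females and -0.60 in males. Plin2 had 0.41 with the endothelial mean. Hadh had 0.54 with the beta-cell mean (0.42 to 0.68 in the 8 cells) and -0.44 with the alpha-cell mean. Each had a permutation p of 1e-05 and held without the 2 mice farthest from the median, at 0.37 or more in size. No listed marker found in the count table was at 0 in every library. Only 4 of 10 adipocyte and 4 of 10 muscle markers were found there, and 2 of 12 lymphocyte markers passed the count filter. The part of these cells in the correlations was not tested apart from removing 6 scores together. That left 0.32 as the median r of the group of Cpt1a to Plin2. The 6 scores held none for alpha, beta, delta or PP cells.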

How the data were processed

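Islet RNA of each mouse was sequenced after poly(A) selection, per the labels' protocols. The authors deposited estimated counts per gene, unscaled between libraries, and their own variance-stabilised log2 values. The submitters' processing notes give GRCm38 as build and DESeq2 as a tool, with no version. No aligner or counter is named in these sources. In the deposited log2 values band differences were removed: 0 of 16927 genes were called for band by limma (0 at an unadjusted p under 0.05).

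Counts were rounded. Genes passing filterByExpr were tested with edgeR 4.0.16 (R 4.3.3; TMM, quasi-likelihood F test, band and sex as terms, Benjamini-Hochberg over all genes, threshold 0.05). Standard errors are the absolute log2 difference over the square root of F. CPM per kb uses the longest transcript. Correlations are of log2 CPM (prior count 2) with the mean of each sex and band removed. Slopes and spread were tested with limma 3.58.1 (genes of mean CPM of at least 1 for spread). Permutations were within sex and band (Python 3.11.15, NumPy 2.4.6, SciPy 1.17.1, pandas 2.3.3). DESeq2 1.42.0, voom, other size factors and filters, single bands, cell type scores and the deposited values were alternatives. Reads are not unique molecules, so depth sets counting error only. The edgeR and limma p-values set a difference or slope against the variation between mice, which includes differences between their libraries. For 9 of the genes counts were fractional in over 80% of libraries (Slc25a20, Acadvl and Eci2 in 100%), as when reads are divided among similar sequences, and those values carry that uncertainty.

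The text names all 30 genes, up to 4 genes per pathway list by the smallest adjusted p for sex, 5 genes at each end of r for 10 of the genes (mean CPM of at least 5, no placeholder symbols) and 1 for each other, the 15 highest and 5 lowest pairs, and neighbours. A few of these are not reported here. Ppara, one of the 10, was not ranked because it failed the filter. The genes and lists were chosen with earlier results of these data known.

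With simulated counts, 36% of 50 genes with a 1.1-fold sex difference were recovered, and 100% at 1.25-fold, 1.5-fold and 2-fold, with 7 false calls among 16927 genes. Of 200 genes made 1.5 times as wide among 5000, 97% were recovered, with 7 false calls. Of 100 genes tied to 1 gene at r = 0.3, 99% were recovered, with 9 false calls among 5000. All these rates hold for the simulated counts alone and were given by size of effect, not by the spread of a gene. Among the tested pathway genes the SD of log2 CPM ran from 0.13 in Hadha to 0.90 in Angptl4. The rates are therefore not error rates for the sex, spread or correlation calls in the real libraries.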

Additional observations from a re-analysis of the deposited data

Results flagged for a closer look

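For 8 pairs the slope of the second gene on the first differed between females and males (limma, interaction of slope with sex, adjusted over all genes). Many other genes did so too. Of all genes, 24.9% differed in their slope on Slc25a20, 22.2% on Cpt1a, 21.2% on Acadvl, 20.1% on Cpt2 and 4.83% on Eci2. For Etfb, Plin2 and Angptl4 as predictor the shares were 17.4%, 11.4% and 10.3%. The adjusted p was 0.000161 for Etfb on Acadvl, 0.00884 for Angptl4 on Cpt1a, 0.000596 for Etfb on Slc25a20, 0.000804 for Slc25a20 on Cpt1a, 9.98e-05 for Angptl4 on Slc25a20, 0.000529 for Etfb on Cpt1a, 0.0168 for Etfb on Cpt2 and 0.0131 for Etfb on Eci2. In each pair r was higher in males, for example 0.56 against 0.17 for Cpt1a and Etfb and 0.51 against 0.24 for Eci2 and Etfb. Without the 12 male libraries that stand apart, chosen after their values were seen, the adjusted p in the same order was 0.210, 0.573, 0.672, 0.675, 0.228, 0.744, 0.662 and 0.779. With the genes of each pair exchanged, the adjusted p in the same order was 0.954, 0.00441, 0.0137, 0.000636, 0.000165, 0.0074, 0.355 and 0.259, so 3 of the 8 were not called in that direction. The slope also differed in 4 pairs in that direction alone: 0.0125 for Angptl4 on Plin2, 0.0193 for Cpt1a on Plin2, 0.00429 for Slc25a20 on Plin2 and 0.000362 for Slc25a20 on Acadvl. Without the 12 libraries these 4 were at 0.588, 0.946, 0.717 and 0.467. What else marks these libraries, beyond the genes used to pick them, was not tested.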

How the results depend on the processing

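The sex result called 8561 genes and 18 of the 29 pathway genes. It called 8664 and 19 with DESeq2, 8481 and 17 with voom, 7643 and 18 in bands 1 to 3, 8564 and 18 in the deposited values, 9524 and 18 without a filter, 7040 and 14 without a band term and 7603 and 16 without the 12 male libraries. It called 5676 and 9 with the cell type scores. Single bands, with fewer mice each, called 2859, 4682, 2622 and 4305 genes, and 4, 12, 5 and 9 of the pathway genes. In single bands Acadsb (-0.040, band 1), Slc25a20 (0.0086, band 3) and Hadhb (-0.031, band 4) changed sign without being called. The band result fell from 14875 genes to 5966, and from 26 pathway genes to 9, in bands 1 to 3, and to 0 in the deposited values. The interaction fell to 6 genes in bands 1 to 3, from 1.09% of all genes. Spread by sex fell from 711 to 60 genes without the 12 libraries. Pairs at r of 0.5 or more, 5 in all, were 2 with the scores removed, 1 by Spearman's rho, 2 in females, 14 in males, 15 with only sex removed and 2 without the 12 libraries. The share of genes at that r with Pdk4 was 0%, and 0.0628% in females. With Hadha it was 0.00698%, and 0.0140% with the scores or GC index removed, in bands 1 to 3, in males and without the 12 libraries, 0.0279% in females and 1.51% with only sex removed. Signs turned for Cpt1a and Etfb in females of band 4 (-0.12), Cpt2 and Etfb in females of band 3 (-0.18), Hadhb and Ppard in males of band 3 (0.026) and, with only sex removed, Hadha with Hadhb (-0.28), Apba1 (0.15), Arid1b (0.24), Dnajb6 (-0.023), Ept1 (-0.17), Sez6l2 (0.24) and Smarcc2 (0.23). With genes outside the pathway, signs turned for Cpt1a with Mettl16 (0.16) and Prmt1 (0.045) in females of band 4. In males of band 4 they turned for Acaa1a with Deb1 (-0.12) and Pdk4 with Edn3 (-0.014). Fewer mice are part of the design of the single-band alternatives, and of the others the cause was not tested.

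The GC index, bands 1 to 3 for sex, the slope by sex and the removal of the 12 libraries were chosen after seeing the data. No paired analysis was possible because every mouse has its own number and the sexes share none. Depth limits Ppara most, at a median of 3 counts per library, then Acot1 and Angptl4.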

Other observations

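Some islet genes, chosen after their values were seen because their r with Cpt1a differed between the sexes, are given here as values with no test. Cpt1a had r = 0.55 with Aldh1a3 in males and 0.16 in females, and 0.36 in males without the 12 libraries that stand apart. With Gc, which codes for a vitamin D binding protein made in alpha cells, r was 0.62 in males, -0.02 in females and 0.31 in males without the 12. Gc is 1 of the 9 alpha-cell markers, and the mean of that list went the other way in males. Its r in males was -0.34 with Cpt1a and -0.26 with Slc25a20, and in females -0.16 and 0.02. Cpt1a with Txnip was at 0.58 in males, 0.28 in females and 0.34 in males without the 12. The beta-cell genes Mafa and Trpm5 were at -0.35 and -0.49 in males, 0.00 and 0.01 in females, and -0.17 and -0.16 in males without the 12. Slc25a20 had r = 0.50, 0.58 and 0.58 with Aldh1a3, Gc and Txnip in males, -0.04, 0.03 and 0.22 in females, and 0.29, 0.26 and 0.36 in males without the 12. With Mafa and Trpm5 it was at -0.28 and -0.38 in males, -0.22 and 0.04 in females, and -0.07 and 0.01 in males without the 12, so for Mafa the sexes were close.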
